A study of Homo sapiens with 6 samples.

Results

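Aminoacyl-tRNA synthetases were compared between cells labelled with an shRNA against FAM60A and cells labelled with a control shRNA. The members were chosen by symbol: probe sets whose platform annotation names exactly 1 gene, and that gene a cytosolic synthetase, a mitochondrial synthetase or a cofactor of the cytosolic multi-synthetase complex. Of 38 genes listed, 36 were measured, among 18132 genes in all, with 93 of 44988 probe sets. They comprise 20 cytosolic genes, the cofactor AIMP1 among them, and 16 mitochondrial genes. The cofactors AIMP2 and EEF1E1 were not analysed here.

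Each synthetase joins 1 amino acid to its tRNAs and so supplies the ribosome with charged tRNA. Separate nuclear genes encode most of the cytosolic and the mitochondrial enzymes, whose symbols end in 1 and 2, while KARS1 and GARS1 serve both compartments. Many cytosolic synthetase genes are known targets of ATF4, the transcription factor that is translated when eIF2 is phosphorylated, for instance by the kinase GCN2 when uncharged tRNA builds up. ATF4 binds, with partners of the C/EBP family, a short DNA element named the C/EBP-ATF response element.

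The cells are labelled TPC-1, a human papillary thyroid carcinoma line, infected with lentivirus that expresses either shRNA; the labels name no other treatment and no shRNA sequence. There were 3 arrays per label, described as independent samples. No label says that they came from separate cultures, so the p-values rest on a spread between arrays that may be technical. RNA was extracted, by the wording of its protocol, from DLD1, a line of colorectal origin. Of the defining thyroid genes PAX8, NKX2-1, TG, TSHR, FOXE1 and SLC5A5, 0 of 15 probe sets lay in the highest of 3 coarse signal classes and 7 lay in the lowest. Of 7 intestinal genes, 4 of 14 probe sets lay in the highest class and 5 in the lowest, where 26.1% and 25.4% of all probe sets lay. CDX2, CDH17, KRT20 and LGALS4 were higher in the arrays labelled FAM60A shRNA, as were 19.8% of all genes. The other intestinal genes, CDX1, VIL1 and GPA33, did not pass the test, and all probe sets of VIL1 and LGALS4 lay in the lowest class. What part the identity of the cells has in the results below was not tested. In bulk RNA, fewer cells of a type and less RNA per cell cannot be told apart.

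SINHCAF, the current symbol of FAM60A, was higher in the arrays that should have less of it. Its log2 values, each relative to the median of its probe sets over the 6 arrays, were -0.58, -0.66 and -0.68 in the arrays labelled control shRNA and 0.63, 0.57 and 0.60 in those labelled FAM60A shRNA. The difference of 1.24 (SE 0.038, n = 3 per group; limma, adjusted p = 1.08e-06) goes against the labels, so the groups are named by their labels throughout. "Rose" and "higher" mean higher in the arrays labelled FAM60A shRNA, and past the threshold means an adjusted p under 0.05 over all genes. Because values are relative to a median, they show differences between arrays and not which gene is more abundant.

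Promoter sequence is shown first because a short element recurred among the cytosolic genes that rose. RefSeq promoter windows (GRCh38.p14, 250 bases before to 50 after each annotated start) were found for 31 of the 36 genes. They were searched on both strands for TGATGNAA, the core of the C/EBP-ATF response element, whose other strand reads TTNCATCA. Among cytosolic genes that rose, 7 of 12 with a window held the core: AARS1, CARS1, MARS1, TARS1, GARS1, IARS1 and NARS1. SARS1, EPRS1, WARS1, KARS1 and QARS1 did not hold it, and VARS1 and YARS1, which also rose, had no window. Among the cytosolic genes that did not rise, 0 of 5 held it, and of 14 mitochondrial genes 1 did, YARS2, which did not pass the test. The share was 3.62% of 14425 tested genes with a window, and 3.83% of those that rose. A gene may have several windows; by windows the shares were 41.2% for the cytosolic genes that rose and 2.69% for the tested genes.

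The 7 matches are given below, 5′ to 3′ on the strand of the gene, with the core in capitals, in the order of how far each gene rose.
AARS1, chr16:70289675-70289704, minus strand: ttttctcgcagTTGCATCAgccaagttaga
CARS1, chr11:3057407-3057436, minus strand: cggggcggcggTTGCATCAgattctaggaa
MARS1, chr12:57488053-57488082, plus strand: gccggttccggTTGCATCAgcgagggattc
TARS1, chr5:33440956-33440985, plus strand: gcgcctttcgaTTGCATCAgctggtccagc
GARS1, chr7:30594834-30594863, plus strand: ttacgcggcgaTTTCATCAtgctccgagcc
IARS1, chr9:92293692-92293721, minus strand: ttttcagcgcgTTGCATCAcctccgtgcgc
NARS1, chr18:57621804-57621833, minus strand: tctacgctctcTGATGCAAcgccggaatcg

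The same 8 letters, TTGCATCA or their reverse complement, stood in 6 of the 7, and GARS1 held TTTCATCA. In AARS1 the core began 187 bases before the start, and in CARS1, MARS1 and IARS1 it began 2, 4 and 13 bases before it. In TARS1 and NARS1 it lay just inside the transcribed part. The E-box CACGTG, which MYC and USF factors bind and whose letters overlap no part of the first motif, was in 1 of 17 cytosolic and 3 of 14 mitochondrial genes, beside 10.9% of the tested genes. A match is a run of letters and not a measured binding site.

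Most cytosolic synthetases rose. Among the 20 measured cytosolic genes, 14 were past the threshold upward, 4 downward and 2 in neither direction, where 44.9% of all genes were past it, 19.8% upward and 25.0% downward. The median log2 difference of the 20 genes was 0.27, beside -0.012 for all 18132 genes. The cytosolic genes gave strong signals, with 42 of 58 probe sets in the highest class. Among the 7163 genes with a probe set in that class, 28.1% rose and 37.0% fell.

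**Figure D1:**
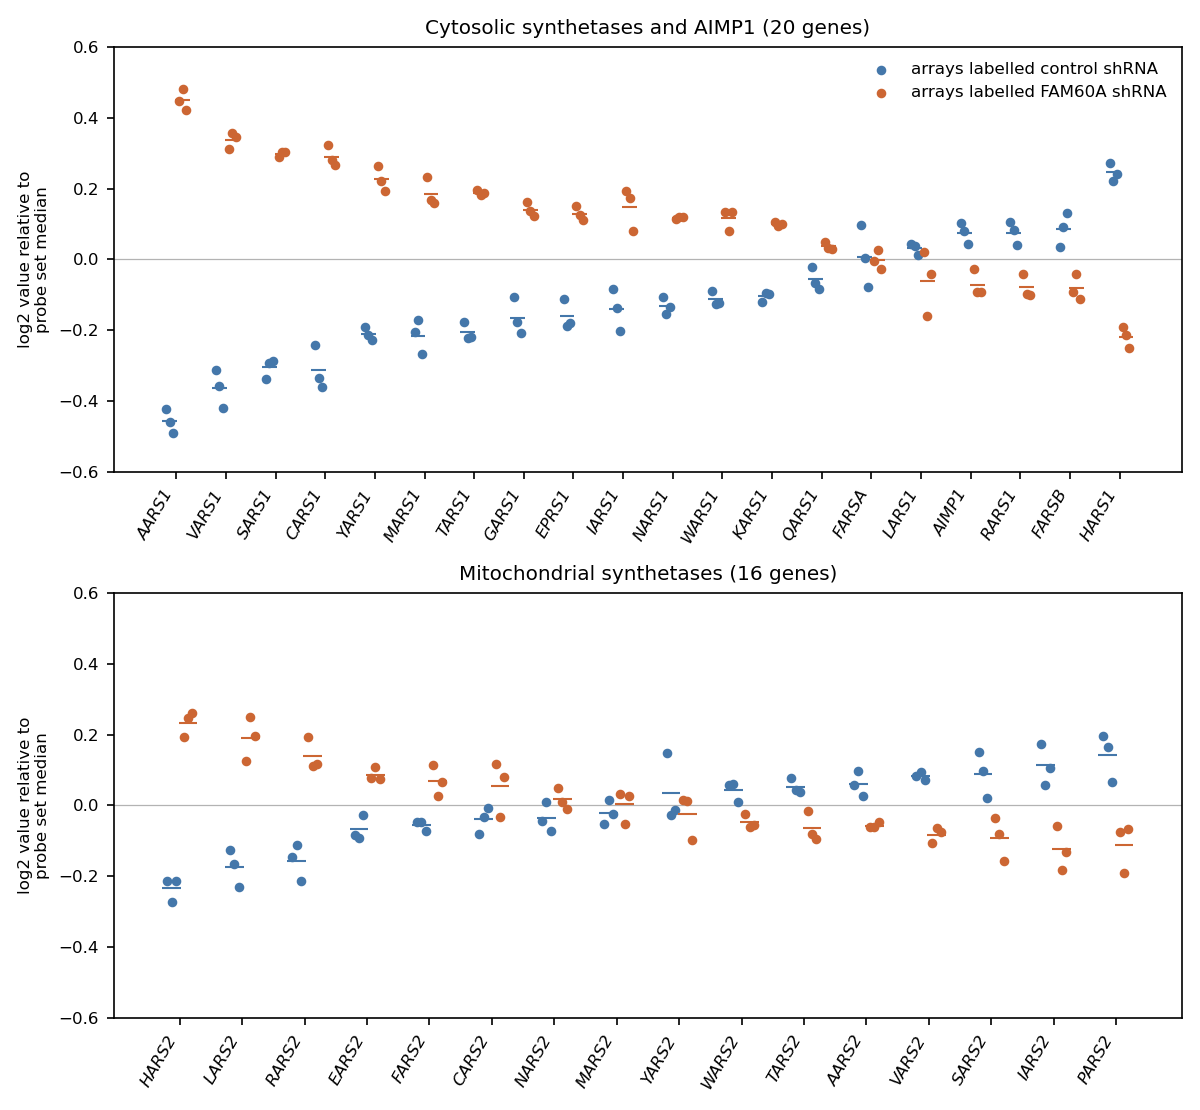
Log2 value of each gene relative to its probe set median (vertical axis) on the 3 arrays labelled control shRNA (blue) and the 3 labelled FAM60A shRNA (orange), with short lines at the group means, for 20 cytosolic and 16 mitochondrial genes ordered by difference. The colours stand apart with orange on top from AARS1 to QARS1 and from HARS2 to FARS2, and with blue on top for AIMP1, RARS1, FARSB and HARS1 and from WARS2 to PARS2.

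AARS1, which charges alanine tRNA, moved most. It read -0.42, -0.46 and -0.49 in the arrays labelled control shRNA and 0.45, 0.48 and 0.42 in those labelled FAM60A shRNA, a 1.88-fold rise (log2 difference 0.91, SE 0.034; limma, adjusted p = 2.19e-06). Both of its probe sets rose, by 0.90 and 0.92, and it ranked 283 among the rises of all genes. Of all single probe sets, 41.4% passed the threshold, 18.4% upward and 23.0% downward. No member reached a log2 difference of 1, which 1.49% of all genes did in either direction.

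VARS1, the valyl enzyme, came next with -0.31, -0.36 and -0.42 against 0.31, 0.36 and 0.34, a 1.62-fold rise (0.70, SE 0.037; limma, adjusted p = 8.37e-06). Its 4 probe sets lay between 0.66 and 0.80. The seryl enzyme SARS1 read -0.34, -0.29 and -0.29 against 0.29, 0.30 and 0.30, a difference of 0.60 (SE 0.030; limma, adjusted p = 6.57e-06). In all 3 genes the lowest array labelled FAM60A shRNA lay more than 0.5 above the highest array labelled control shRNA.

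CARS1, for cysteine, read -0.24, -0.33 and -0.36 against 0.32, 0.28 and 0.27, a difference of 0.60 (SE 0.041; limma, adjusted p = 2.37e-05). YARS1, for tyrosine, read -0.19, -0.21 and -0.23 against 0.26, 0.22 and 0.19, a difference of 0.44 (SE 0.033; limma, adjusted p = 3.77e-05). MARS1, for methionine, read -0.21, -0.17 and -0.27 against 0.23, 0.17 and 0.16, a difference of 0.40 (SE 0.039; limma, adjusted p = 1.28e-04). The groups did not overlap in any of the 14 genes that rose, which adds little, since a test on the same arrays picked these genes. Of all 20 cytosolic genes, 14 stood apart upward and 4 downward, beside 23.7% and 29.5% of all genes.

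The other 8 cytosolic genes that rose did so by 1.32-fold or less. TARS1, for threonine, rose by 0.40, GARS1, for glycine, by 0.30, and both EPRS1, the fused enzyme for glutamate and proline, and IARS1, for isoleucine, by 0.29. NARS1, for asparagine, rose by 0.25, WARS1, for tryptophan and also a gene that interferon induces, by 0.23, KARS1, for lysine, by 0.20, and QARS1, for glutamine, by 0.09. QARS1 was the weakest of them (limma, adjusted p = 0.047), and neither of its probe sets passed on its own. It lost its call without control shRNA replicate 2 or 3 or without any 1 of the arrays labelled FAM60A shRNA, with differences from 0.080 to 0.097. The groups of QARS1 still stood apart, at -0.02, -0.07 and -0.08 against 0.05, 0.03 and 0.03.

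Histidyl-tRNA synthetase went the other way. HARS1 read 0.27, 0.22 and 0.24 in the arrays labelled control shRNA and -0.19, -0.21 and -0.25 in those labelled FAM60A shRNA. That is a 1.38-fold fall, with a log2 difference of -0.46 (SE 0.032; limma, adjusted p = 2.69e-05), and its 3 probe sets fell by 0.40 to 0.55. It was the largest change of any member downward.

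The other 3 cytosolic genes that fell changed little. FARSB, the beta subunit of the phenylalanyl enzyme, read 0.03, 0.09 and 0.13 against -0.09, -0.04 and -0.11, a difference of -0.17 (SE 0.038; limma, adjusted p = 0.0093). RARS1, for arginine, read 0.11, 0.08 and 0.04 against -0.04, -0.10 and -0.10, a difference of -0.16 (SE 0.034; limma, adjusted p = 0.0077). AIMP1, a scaffold of the multi-synthetase complex whose secreted form acts as a cytokine, read 0.10, 0.08 and 0.05 against -0.03, -0.09 and -0.09, a difference of -0.15 (SE 0.035; limma, adjusted p = 0.011). The groups of these genes stood apart by less than 0.09. Probe sets past the threshold on their own were 3 of 5 for FARSB, 2 of 2 for RARS1 and 2 of 5 for AIMP1, all lower. FARSA, the partner subunit of FARSB, had a difference of -0.01 with a 95% confidence interval from -0.12 to 0.11 and did not pass.

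LARS1, for leucine, did not pass as a mean of probe sets, and its probe sets disagreed. The mean differed by -0.09 (SE 0.050; limma, adjusted p = 0.19), with a 95% confidence interval from -0.21 to 0.03. The pair of probe sets in the highest signal class fell by 0.32 and 0.30, and the third, in the middle class, rose by 0.34, each past the threshold over all probe sets. No direction can be given for LARS1.

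Probe sets also spread in size for 2 genes that rose. The s_at and x_at probe sets of TARS1, types whose probes may also match other transcripts, differed by 0.47 and 0.64, and its remaining one by 0.08, which did not pass on its own (limma, adjusted p = 0.23). Those of WARS1 ran from -0.10 to 0.60, 3 of 4 past the threshold and all of these higher. For AARS1, CARS1, GARS1, EPRS1, IARS1 and KARS1 all probe sets passed in the direction of the gene and lay within 0.07 of each other. SARS1 and YARS1 had 1 probe set each, that of YARS1 of the s_at type.

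**Figure D2:**
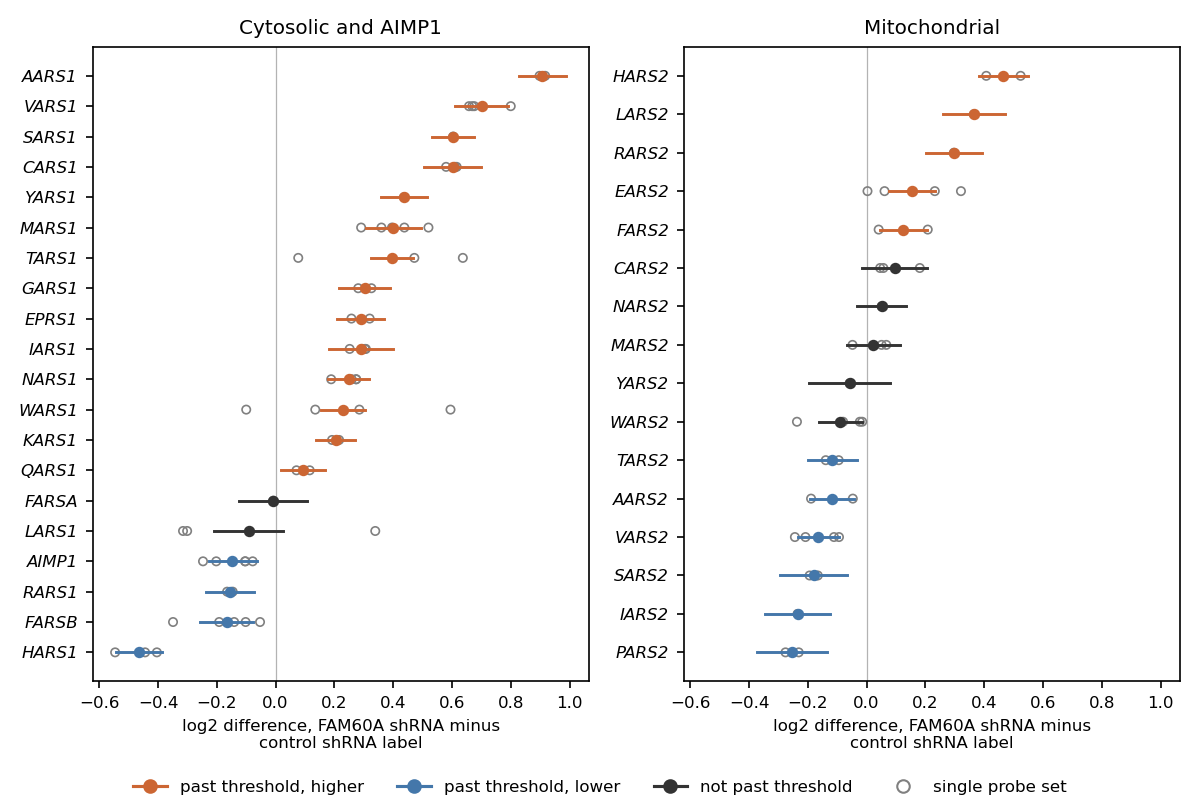
Log2 difference of each gene (horizontal axis, FAM60A shRNA label minus control shRNA label) with its 95% confidence interval from limma, coloured by call, and each single probe set as an open circle. AARS1 lies farthest right at 0.91 and HARS1 farthest left at -0.46, and the open circles of LARS1, WARS1 and TARS1 are spread widest.

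Both families of synthetases, which differ in the fold of their catalytic domain, took part. Class I, with enzymes such as VARS1, CARS1 and MARS1, had 7 of 9 cytosolic genes higher and 1 lower, with a median difference of 0.29. Class II, with enzymes such as AARS1, SARS1 and HARS1, had 6 of 9 higher and 2 lower, with a median of 0.25. EPRS1 holds an enzyme of each class and was left out of both. Of all genes, 19.8% were higher and 25.0% lower.

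Genes of the multi-synthetase complex, which holds several synthetases and their cofactors together in the cytosol, had a lower median difference than the cytosolic genes outside it. Of 8 measured complex genes, EPRS1, IARS1, KARS1, MARS1 and QARS1 rose, AIMP1 and RARS1 fell, and LARS1 did not pass, with a median of 0.15 and a range from -0.16 to 0.40. Outside it, 9 of 12 rose and 2 fell, with a median of 0.35 and a range from -0.46 to 0.91. These are counts and medians, and the difference between the 2 sets was not tested. Of all genes, 19.8% rose and 25.0% fell.

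Mitochondrial synthetases showed no common direction. Among 16 measured genes, 5 were called higher, 6 lower and 5 neither, beside 19.8% and 25.0% of all genes. Their median difference was -0.017, close to that of all genes, and its sign depended on the scaling, with 0.004 and 0.009 after quantile normalization again and cyclic loess. Signals were weaker than in the cytosolic set, with 7 of 35 probe sets in the highest class. Of the 10969 genes with no probe set in that class, 14.4% rose and 17.2% fell. Of the 7163 genes with such a probe set, 28.1% rose and 37.0% fell. LARS2, RARS2, CARS2, MARS2, YARS2, VARS2 and IARS2 have such a probe set and the others none, so neither share describes the whole set.

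HARS2, the mitochondrial histidyl enzyme, rose most. It read -0.21, -0.27 and -0.21 in the arrays labelled control shRNA against 0.19, 0.25 and 0.26, a 1.38-fold rise (log2 difference 0.47, SE 0.035; limma, adjusted p = 3.95e-05), and its 2 probe sets rose by 0.41 and 0.52. The leucyl enzyme LARS2 read -0.13, -0.16 and -0.23 against 0.13, 0.25 and 0.20, a difference of 0.36 (SE 0.045; limma, adjusted p = 4.11e-04). Both groups stood well apart, the closest arrays of LARS2 being 0.13 and -0.13. LARS2 had 1 probe set.

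RARS2, for arginine, with 1 probe set, read -0.15, -0.11 and -0.21 against 0.19, 0.11 and 0.12, a difference of 0.30 (SE 0.041; limma, adjusted p = 7.43e-04). EARS2, for glutamate, read -0.08, -0.09 and -0.03 against 0.08, 0.11 and 0.07, a difference of 0.15 (limma, adjusted p = 0.0064), with 2 of 4 probe sets past the threshold. FARS2, for phenylalanine, read -0.05, -0.05 and -0.07 against 0.11, 0.03 and 0.07, a difference of 0.12 (limma, adjusted p = 0.020). The groups did not overlap in any of these 3 genes, which were picked by a test on the same arrays. The rise of FARS2 lost its call without control shRNA replicate 2 or 3 or FAM60A shRNA replicate 1 or 3, with differences from 0.10 to 0.13.

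PARS2, for proline, fell most among the mitochondrial genes. It read 0.20, 0.17 and 0.07 against -0.08, -0.19 and -0.07, a difference of -0.25 (SE 0.051; limma, adjusted p = 0.0049). IARS2, for isoleucine, read 0.17, 0.06 and 0.11 against -0.06, -0.18 and -0.13, a difference of -0.24 (SE 0.046; limma, adjusted p = 0.0045). The only probe set of IARS2 is of the s_at type. The arrays of 1 label differed among themselves by up to 0.13 in these genes, and the labels still did not overlap.

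The valyl enzyme VARS2 read 0.08, 0.09 and 0.07 against -0.11, -0.07 and -0.07, a difference of -0.16 (SE 0.030; limma, adjusted p = 0.0030). Its call was lost without x_at and s_at probe sets (-0.10; limma, adjusted p = 0.051). SARS2, for serine, read 0.15, 0.10 and 0.02 against -0.03, -0.08 and -0.16, a difference of -0.18 (SE 0.049; limma, adjusted p = 0.019), the closest arrays being 0.02 and -0.03. AARS2, for alanine, and TARS2, for threonine, both fell by 0.12, with 1 of 2 and 0 of 2 probe sets past the threshold on their own. The calls of SARS2, AARS2 and TARS2 did not hold when any 1 of several arrays was left out, although the differences stayed below 0. SARS2 lost its call without control shRNA replicate 1 or 2 or FAM60A shRNA replicate 3 (differences from -0.18 to -0.15). AARS2 lost it without control shRNA replicate 2 or FAM60A shRNA replicate 1 or 2 (-0.12 to -0.10). TARS2 lost it without any 1 array other than FAM60A shRNA replicate 1 (-0.12 to -0.10). Without control shRNA replicate 2, 3 mitochondrial genes were left as lower.

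Of the other mitochondrial enzymes, WARS2 (-0.09), YARS2 (-0.06), MARS2 (0.02), NARS2 (0.05) and CARS2 (0.09) did not pass. Their 95% confidence intervals allow changes from -0.195, the lower bound of YARS2, to 0.205, the upper bound of CARS2. CARS2 passed without FAM60A shRNA replicate 2 (0.14; limma, adjusted p = 0.035), the array that read -0.03 where the other arrays of its label read 0.12 and 0.08. WARS2 missed the threshold (limma, adjusted p = 0.056) although its groups did not overlap, as in 29.5% of all genes in that direction.

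The cytosolic and the mitochondrial enzyme for the same amino acid tended to move in opposite directions. The members gave 17 such pairs, in which EPRS1 and FARS2 occur 2 times each. Both genes were past the threshold in 10 pairs, and they moved in opposite directions in 9 of these and in the same direction in 1, that of EPRS1 and EARS2. Without control shRNA replicate 2, the pairs in opposite directions were 5, and those in the same direction 1. Without x_at and s_at probe sets they were 6 and 1. The called genes went both ways in each set, 14 higher and 4 lower in the cytosolic, 5 and 6 in the mitochondrial. Pairs of enzymes for different amino acids can thus also differ in direction, and their share was not computed. Across the 17 pairs, Pearson's r between the 2 differences was -0.74 and Spearman's rho -0.67, as a description of points that come from the same 6 arrays.

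Opposite directions occurred in both orders. AARS1, VARS1, SARS1, TARS1, IARS1 and EPRS1 rose while AARS2, VARS2, SARS2, TARS2, IARS2 and PARS2 fell. HARS1, RARS1 and FARSB fell while HARS2, RARS2 and FARS2 rose. In LARS1, the cytosolic gene with no clear direction, the mitochondrial gene LARS2 rose.

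Taking the cytosolic minus the mitochondrial value within each array removes what an array shares. The alanyl pair shifted most, from -0.48, -0.56 and -0.52 in the arrays labelled control shRNA to 0.51, 0.54 and 0.47 in those labelled FAM60A shRNA, a change of 1.03. The histidyl pair shifted almost as far the other way, from 0.48, 0.49 and 0.45 to -0.38, -0.46 and -0.51, a change of -0.93. The arrays of the 2 labels did not overlap in 16 of the 17 pairs, 12 upward and 4 downward, FARSA with FARS2 being the exception. Of single genes 53.2% stood apart, and no share was computed for other gene pairs. For each of the 16 the two-sided exact permutation test over arrays gives p = 0.1, the smallest that 3 against 3 arrays allow.

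**Figure D3:**
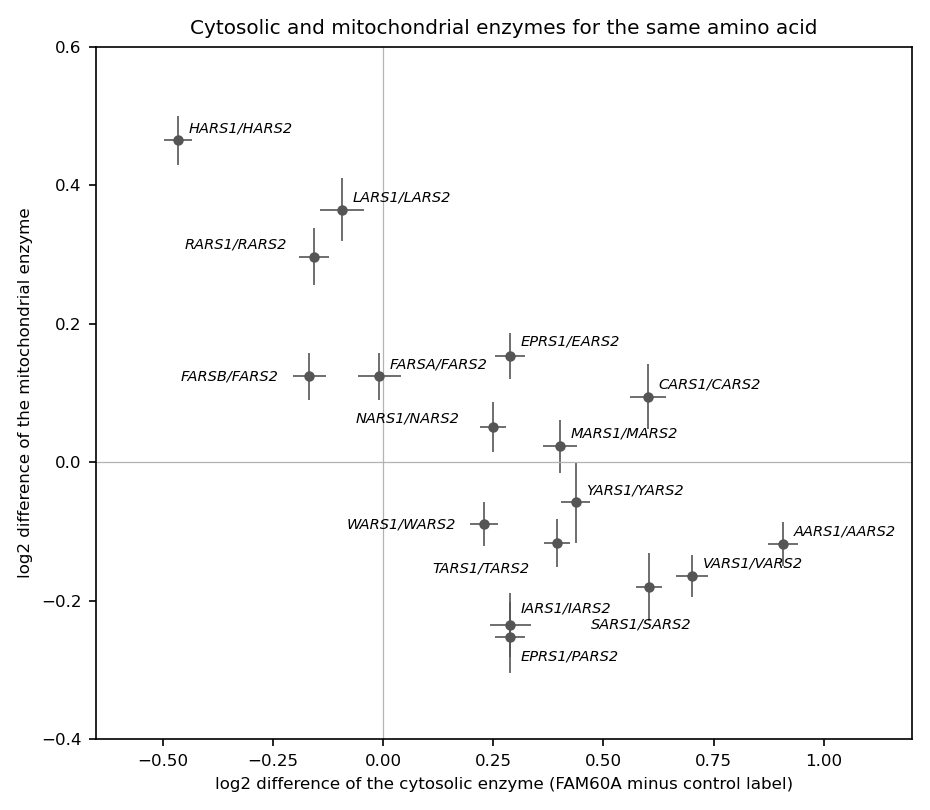
Log2 difference of the cytosolic enzyme (horizontal axis) against that of the mitochondrial enzyme for the same amino acid (vertical axis), FAM60A shRNA label minus control shRNA label, with SE bars, for 17 pairs. Points run from HARS1/HARS2 at the upper left (-0.46, 0.47) to AARS1/AARS2 at the lower right (0.91, -0.12), with 5 pairs left of 0, all of them with the mitochondrial gene above 0.

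HARS1 and HARS2 also lie head to head on chromosome 5, with annotated starts 85 bases apart on opposite strands. The 84 bases between these starts are shown because the genes on either side of them changed by 0.46 downward and 0.47 upward. They lie at chr5:140691371-140691454 (GRCh38.p14, plus strand, read from HARS1 toward HARS2).
HARS1 to HARS2: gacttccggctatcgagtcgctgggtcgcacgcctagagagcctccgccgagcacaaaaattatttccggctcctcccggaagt

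Neither motif searched is in this stretch in letters. KARS1 has a similar arrangement with TERF2IP, which encodes the telomere protein RAP1, their starts being 108 bases apart. KARS1 rose by 0.20 and TERF2IP fell by 0.62 (SE 0.031; limma, adjusted p = 6.96e-06). The stretch between them lies at chr16:75647666-75647772 (GRCh38.p14, plus strand).
KARS1 to TERF2IP: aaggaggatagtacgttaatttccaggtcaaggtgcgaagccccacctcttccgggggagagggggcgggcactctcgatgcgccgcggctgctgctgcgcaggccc

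Across the members, 8 pairs of divergent genes with starts at most 500 bases apart were measured, HARS1 with HARS2 counted 1 time. In 6 pairs both genes were past the threshold, and in 5 of these they moved in opposite directions. Besides the 2 pairs above these were RARS2 (0.30) with ORC3 (-0.17), a subunit of the origin recognition complex, EARS2 (0.15) with UBFD1 (-0.24), and WARS1 (0.23) with WDR25 (-0.28, SE 0.094; limma, adjusted p = 0.049). FARS2 (0.12) and LYRM4 (0.30), a factor of iron-sulfur cluster assembly, rose together. AIMP1 with TBCK (-0.08) and SARS2 with MRPS12 (0.10) had 1 gene that did not pass. Among all 822 divergent pairs measured, 328 had both genes past the threshold, and 35.4% of those moved in opposite directions. With 6 pairs the difference between these shares was not tested.

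**Figure D4:**
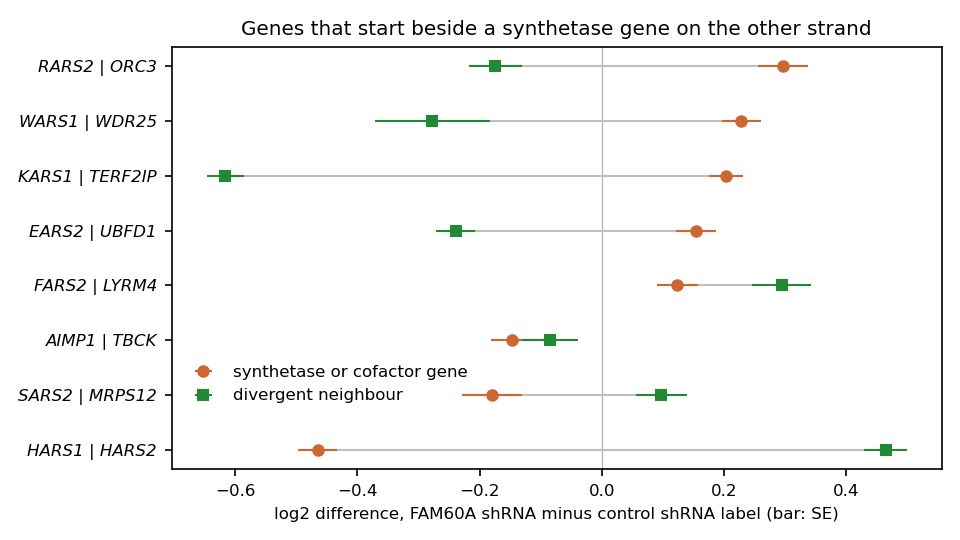
Log2 difference (horizontal axis, FAM60A shRNA label minus control shRNA label) of each synthetase or cofactor gene (circle) and of the gene that starts within 500 bases of it on the other strand (square), with SE bars, for 8 pairs. HARS1 and HARS2 lie at -0.46 and 0.47, KARS1 and TERF2IP at 0.20 and -0.62, and the symbols fall on opposite sides of 0 in 6 of the 8 pairs.

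Most genes of a list of ATF4 targets outside the synthetase family were also higher. The list was chosen with earlier results of these data known, so its counts are a description and not an independent check. Among 31 measured amino acid response genes, ATF4 itself included, 26 rose, 0 fell and 5 were short of the threshold, with a median of 0.61. Of all genes 19.8% rose and 25.0% fell. SLC7A1 and PSPH, both short of the threshold, had probe sets past it in both directions, from -0.368 to 0.525 and from -0.341 to 0.551. PPP1R15A, a further known target of ATF4, is counted with the eIF2 genes and fell. With the replicate number as a block, 1 counted as lower. ATF4 itself read -0.26, -0.27 and -0.21 against 0.21, 0.25 and 0.25, a difference of 0.49 (SE 0.032; limma, adjusted p = 2.03e-05). The largest were the mTORC1 inhibitor DDIT4 (3.01), the glutamine carrier SLC1A5 (1.12), the mitochondrial folate enzyme MTHFD2 (1.07), mitochondrial PEPCK, PCK2 (1.06), and the translation repressor EIF4EBP1 (1.04). Only DDIT4, SLC1A5, MTHFD2, PCK2 and EIF4EBP1 of this list passed a log2 difference of 1, above the 0.91 of AARS1. In the promoter windows of the list, 8 of 24 genes held the core TGATGNAA, beside 3.62% of the tested genes. ATF4 binds this element, so a list of its known targets may hold it whatever these arrays show.

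The genes that act on eIF2 moved both ways. The 9 measured genes divided into 4 higher, 3 lower and 2 with no call, beside 19.8% and 25.0% of all genes. Without x_at and s_at probe sets, 2 of 7 were higher. The kinase PERK, EIF2AK3, rose by 0.57, GCN1, the activator of GCN2, by 0.37, the kinase HRI, EIF2AK1, by 0.27 and GCN2 itself, EIF2AK4, by 0.18. EIF2S1, which encodes the phosphorylated subunit of eIF2, read 0.45, 0.37 and 0.37 against -0.37, -0.37 and -0.40, a difference of -0.78 (SE 0.036; limma, adjusted p = 4.91e-06). The phosphatase subunits that reverse this phosphorylation fell too, PPP1R15B by 0.82 and PPP1R15A by 0.45. The probe sets of EIF2S1 ran from -1.32 to -0.25. Those of EIF2AK4 lay at 0.025 and 0.331, with 1 of 2 past the threshold. Those of EIF2AK1 ran from 0.059 to 0.533, with 6 of 8 past it.

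Other genes of tRNA charging and delivery were mixed. The 22 measured genes divided into 7 higher, 9 lower and 6 with no call, beside 19.8% and 25.0% of all genes, with a median of -0.063. XPOT, the exportin that carries tRNA out of the nucleus, rose by 0.67 (SE 0.054; limma, adjusted p = 5.11e-05), and EEF1A2, which brings charged tRNA to the ribosome, by 0.92 (SE 0.040; limma, adjusted p = 3.94e-06). The exchange factors EEF1B2 (0.34) and EEF1D (0.26), EEF1A1 (0.29), the selenophosphate synthetase SEPHS2 (0.21) and mitochondrial TUFM (0.09) also rose. The probe sets of EEF1A1 ran from -0.18 to 0.74. TUFM lost its call without any 1 of the 6 arrays (0.080 to 0.10), and the median of this list lay near that of all genes.

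DTD2, an editing enzyme that removes amino acids from wrongly charged tRNA, fell by 0.59 (SE 0.038; limma, adjusted p = 1.94e-05). GATC and GATB, subunits of the amidotransferase that makes mitochondrial glutaminyl-tRNA in place of a glutaminyl enzyme, fell by 0.36 and 0.35. GATC read 0.21, 0.12 and 0.14 against -0.12, -0.27 and -0.22. The third subunit, QRSL1, had -0.07 and did not pass, and the probe sets of GATB lay at -0.67 and -0.02.

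**Figure D5:**
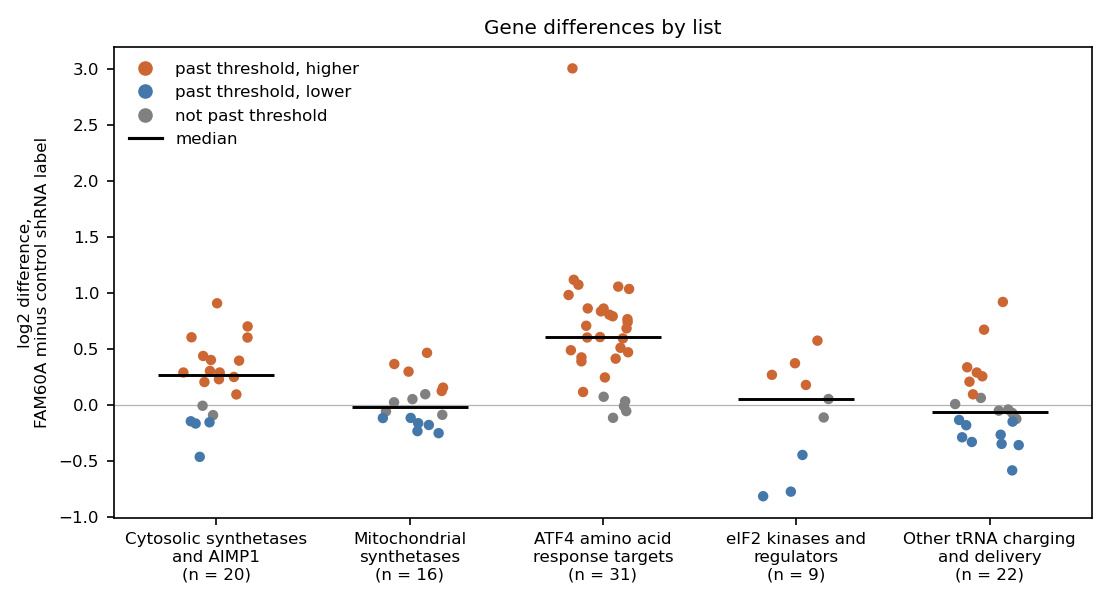
Log2 difference of each gene (vertical axis, FAM60A shRNA label minus control shRNA label) in 5 lists, coloured by call, with a line at each median; horizontal scatter within a list only separates the points. Medians lie at 0.27 for cytosolic genes, -0.017 for mitochondrial genes, 0.61 for amino acid response genes, 0.052 for eIF2 kinases and regulators and -0.063 for other tRNA genes.

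Arrays of 1 label were close to each other for the members. The median over all 20 cytosolic genes was -0.11, -0.15 and -0.16 on the arrays labelled control shRNA and 0.14, 0.12 and 0.12 on those labelled FAM60A shRNA. Over the 16 mitochondrial genes it was 0.007, 0.013 and -0.010 against 0.024, -0.042 and -0.029, so the labels overlapped. The SE of a member's difference ran from 0.028 to 0.058 with a median of 0.035, beside 0.044 for all genes.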

How the data were processed

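RNA from 6 samples was hybridised to Affymetrix arrays, 1 per sample, and grouped by title. The authors deposited log2 values of 49395 probe sets summarised by RMA, per the submitters' processing notes. Program and chip description: not given in the sources used here. Every probe set's median over the arrays was 0 to within 5e-07, so levels are lost. The base 2 is that of RMA and is not stated in the table. A coarse signal class (2 to 4, 4 to 8 or 8 to 16, on the scale before centring) was read from the rounding step that the values of a probe set share.

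Probe sets with several symbols (1832) or none (2473) and 102 control probe sets were left out. A gene is the mean of its probe sets. The 2 labels were compared over all genes in limma (version 3.58.1, R 4.3.3; lmFit, then eBayes), with Benjamini-Hochberg adjustment and a threshold of 0.05. The fit was tested on simulated data. The number of arrays limits the precision.

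Members, lists and tests were chosen with earlier results of these data known. The rule for named genes took every member, values by array for the 6 members of each compartment with the largest change past the threshold and for those against their class, and up to 5 genes of each related list. Other values by array and the divergent neighbours were chosen after values were seen. Alternatives were other normalizations, probe set rules, a filter on the lowest class, robust moderation, a replicate block and leaving out each array.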

Additional observations from a re-analysis of the deposited data

How the results depend on the processing

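The 14 higher and 4 lower cytosolic calls became 13 to 14 and 4 when 1 array was left out, and the 5 higher and 6 lower mitochondrial calls 4 to 6 and 3 to 5. Pairs in opposite directions were 5 to 7 and in the same direction 1 to 2 in those fits, beside 9 and 1. These pair counts were chosen after the data were seen. The probe set of largest variance gave medians of 0.32 for cytosolic and -0.053 for mitochondrial genes, 2 pairs in the same direction and a difference of 0.34 for LARS1, reversed and past the threshold. The median of probe sets also gave 2 such pairs, with LARS1 at -0.27 and past the threshold downward. Without x_at and s_at probe sets the medians were 0.23 and 0.023, 11 of the 19 cytosolic genes left and 2 of the 7 eIF2 genes left were higher, and TARS1 (0.08), QARS1 (0.09) and VARS2 (-0.10) lost their calls. The median of all genes was 0.006 after quantile normalization again, 0.014 after cyclic loess and 0.001 with arrays centred. In the same order, mitochondrial genes called lower were 5, 4 and 5 beside 6, and pairs in opposite directions 8, 7 and 8 beside 9. Cytosolic calls stayed at 14 higher and 4 lower with these scalings. A replicate block left 13 cytosolic genes higher, QARS1 losing its call, and 1 amino acid response gene lower. Same-numbered arrays correlated in their deviations at 0.15, 0.062 and 0.080, so the numbers are not known to pair samples, although each array correlated best with its own number. Robust moderation changed no call of a member. The signal classes are coarse and cannot show whether a dim member lies at background.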

Other observations

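A few probe sets name a member together with another gene and were left out of the gene values. The pair named for GTF2H4 and VARS2 differed by -0.39 and -0.19, and that for EMX1 and TARS2 by -0.15, in the direction of VARS2 and TARS2. The probe set named for HARS1 and ATP13A5 differed by 0.002, unlike the 3 probe sets of HARS1 alone.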
